A study of Caenorhabditis elegans with 22 samples.

Results

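The *enu-3* family of *Caenorhabditis elegans* was followed through sorted muscle and seam cells of third-stage (L3) larvae. It comprised 6 of the 20392 genes in the count tables, namely every gene whose name is *enu-3* followed by a copy number. The family was noticed because *enu-3.2* and *enu-3.3* differed strongly from wild type in seam cells that lack *met-2*, so its members were chosen by their seam cell values, and those values are described here with no test. The tests below are on the muscle libraries and the degron libraries, which that choice did not use. The tests were still chosen with earlier results of these data known, and the muscle and seam cell mutants share their genotypes.

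The founding gene, *enu-3.1* (H04D03.1), encodes a predicted transmembrane protein. It takes its name from enhancement of uncoordination: its loss worsens the motor axon outgrowth defects of mutants in the netrin guidance pathway, in which the secreted cue UNC-6 is read by the receptors UNC-40 and UNC-5. The roles of the other copies are less well known. MET-2, a SETDB1-type enzyme, places the mono- and dimethyl marks on lysine 9 of histone H3 (H3K9), and SET-25 places the trimethyl mark. Both marks are known for keeping genes of other tissues silent.

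In the WBcel235 annotation *enu-3.1* (WBGene00010362), *enu-3.2* (WBGene00008003), *enu-3.5* (WBGene00012552) and *enu-3.6* (WBGene00010477) lie on chromosome III, and *enu-3.3* (WBGene00021015) and *enu-3.4* (WBGene00021034) on chromosome I. The genes *met-2* and *set-25* are also on chromosome III. *enu-3.2*, *enu-3.3*, *enu-3.4* and *enu-3.5* each have 6 exons, *enu-3.6* has 4 and *enu-3.1* has 3. *enu-3.2* and *enu-3.3* have the same coding length, 1386 bases, against 1374 for *enu-3.5*, 957 for *enu-3.6* and 612 for *enu-3.1*. *enu-3.4* (W05F2.2) is annotated as a pseudogene with no coding sequence. No annotated gene overlaps any of the 6 members. Only reads that aligned to a single place were counted, so copies that are nearly identical lose the reads they share. Their levels are then too low by an unknown amount and their changes are read from the parts that differ.

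The 22 libraries formed 11 groups of 2, described in the labels as independent biological replicates. Body wall muscle was sorted by red fluorescence driven by the *myo-3* promoter from 4 genotypes: wild type (N2), *met-2(n4256)*, *set-25(n5021)* and the *met-2(n4256) set-25(n5021)* double mutant. Cells of N2 animals that were negative in such a sort gave the non-muscle group. Their tissue label reads body wall muscle, so this group was named from the sample titles, and its muscle markers are given below. The muscle strains carry the *gwIs4* array, which supplies the red marker. Seam cells, the stem-like cells of the lateral epidermis, were sorted by 2 fluorescent markers (SCM::GFP and AJM-1::mCherry) from the same 4 genotypes. A further 2 groups were muscle of a *met-2::degron* strain with a TIR1 auxin receptor expressed from the ubiquitous *eft-3* promoter, grown with or without auxin, which triggers degradation of the tagged MET-2 in all tissues. Library totals lay between 11883702 and 24752059 counts. All 10 muscle markers averaged at least 5 counts per 1000000 counts of the library (CPM) in every muscle group, and all 8 seam markers did so in every seam group. The seam groups still differed in marker content. The 8 seam markers summed to 1980 to 2031 CPM in N2 and 1174 to 1309 in *met-2* seam cells. In *set-25* they summed to 463 to 815 CPM and in the double mutant to 2761 to 3600. The seam levels and shares below were not adjusted for this. The transcript of *met-2* averaged 44.6 CPM in N2 muscle, 26.7 CPM in *met-2* muscle and 38.4 CPM in the double mutant, and *set-25* went from 10.2 CPM in N2 to 6.44 CPM in *set-25* muscle. *set-25* was at 11.6 and 4.11 CPM in the double mutant libraries, on either side of N2. These counts cover each whole gene, including parts that a deletion leaves, so they check the labels only in part.

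In N2 muscle all 6 members were rare. The 12 values lay between 0.978 and 3.98 CPM, and the lowest was 14 counts. That is above the minimum of the low-count filter, 10 counts in a library of median size or 0.729 CPM, so all 6 members passed it on the N2 muscle libraries alone. Per length, the highest was *enu-3.5* with 1.86 ± 0.531 CPM per kilobase of exon (RPKM; SD, n = 2) and the lowest *enu-3.4* with 0.667 ± 0.069 RPKM. In *met-2* muscle the order by RPKM was *enu-3.2*, *enu-3.3*, *enu-3.5*, *enu-3.1*, *enu-3.6* and *enu-3.4*, and the double mutant muscle had the same order.

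**Figure D1:**
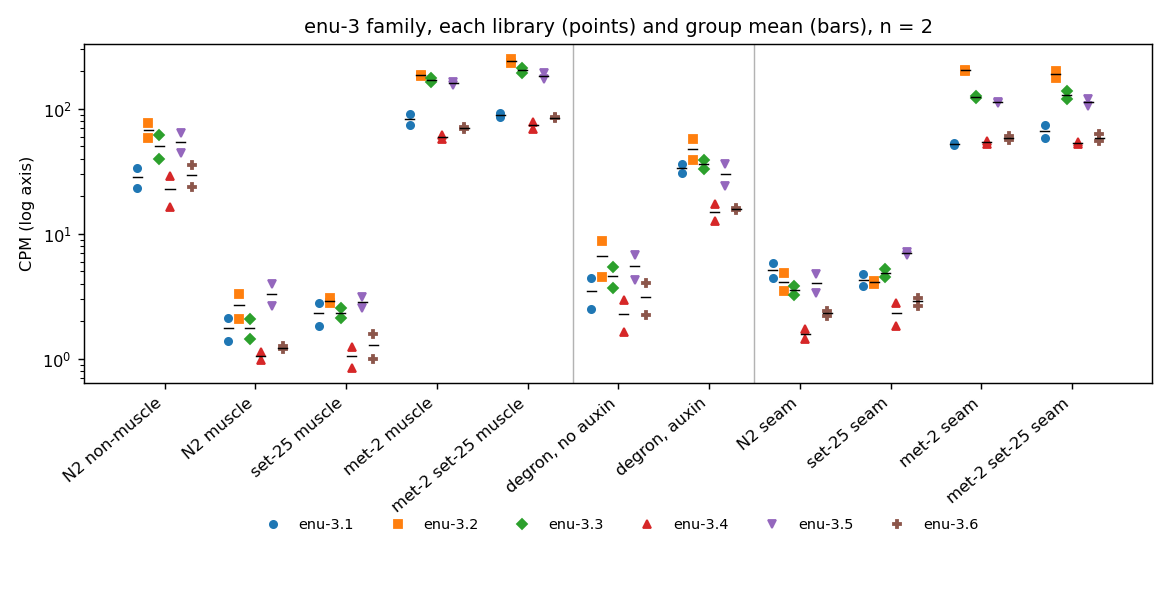
Level of each *enu-3* member in CPM (log axis) in every library. Points are libraries, short bars are group means (n = 2), colours and symbols are genes, and vertical lines separate the 3 count tables. In N2 muscle the members lie between 0.978 and 3.98 CPM, and in *met-2* muscle between 57.5 and 188 CPM.

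Every member was higher in *met-2* muscle than in N2 muscle. *enu-3.2* was at 2.10 and 3.32 CPM in the N2 libraries and at 188 and 183 CPM in the *met-2* libraries. Its fitted log2 change was 6.07 ± 0.276 (SE; adjusted p 9.81e-08), a 67.1-fold difference, from edgeR's quasi-likelihood test with Benjamini-Hochberg adjustment over 9167 genes. *enu-3.3*, on another chromosome, went from 2.10 and 1.43 CPM to 177 and 165 CPM. That was the largest change in the family, 6.56 ± 0.257 on the log2 scale (94.3-fold, adjusted p 6.21e-08). For each of the 6 genes both *met-2* libraries were far above both N2 libraries. In bulk samples such as these, more cells of a type and more RNA per cell cannot be told apart.

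The founding gene *enu-3.1* was at 1.40 and 2.11 CPM in N2 and 90.8 and 74.5 CPM in *met-2* (5.53 ± 0.297, adjusted p 2.96e-07). Its spread between the *met-2* libraries was the widest of the 6. *enu-3.5*, the member with the highest mean N2 muscle level per length, was at 3.98 and 2.64 CPM against 165 and 154 CPM (5.56 ± 0.250, adjusted p 9.81e-08). *enu-3.6* went from 1.26 and 1.21 CPM to 71.7 and 68.4 CPM (5.79 ± 0.301, adjusted p 2.96e-07). The pseudogene *enu-3.4* moved with the coding copies, from 0.978 and 1.13 CPM to 61.5 and 57.5 CPM (5.78 ± 0.275, adjusted p 1.39e-07). A gene was called when its adjusted p was under 0.01 and its log2FC, computed on counts scaled to the mean library size plus a pseudocount of 8, was over 2-fold. By this rule 6 of 6 members were called higher, against 2.17% of all genes tested. The median log2FC of the members was 5.33, beside 0.01 over all genes.

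The summed family counts gave the size of the change as a whole. They were 11.8 and 11.9 CPM in N2 muscle and 754 and 702 CPM in *met-2* muscle, a 61.5-fold ratio of the group means. The double mutant had 910 and 838 CPM.

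*set-25* muscle stood near N2 muscle. No member was called by edgeR or by DESeq2 (0 of 6, against 0.0% of all genes in edgeR), and 0 had an unadjusted p under 0.05. edgeR called 0 of 9167 genes higher there, with 308 higher at an unadjusted p under 0.05, and DESeq2 called 3. The largest fitted change was that of *enu-3.3*, 0.46 ± 0.279 (adjusted p 0.948), whose libraries were at 2.56 and 2.13 CPM in *set-25* against 2.10 and 1.43 in N2. *enu-3.2* had 2.81 and 3.05 CPM in *set-25*, within the range of its N2 libraries. For 5 members the *set-25* and N2 libraries overlapped, and those of *enu-3.3* did not.

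In the double mutant all 6 members were called higher than in N2, against 2.36% of all genes, with fitted log2 changes from 5.73 for *enu-3.1* to 6.90 for *enu-3.3* (adjusted p at most 2.25e-07). *enu-3.2* was at its own highest level of the 11 groups there, 249 and 232 CPM (6.53 ± 0.280 against N2). All 6 were also called higher in the double mutant than in *set-25* muscle, against 2.13% of all genes, and their changes ran from 5.28 to 6.43. These comparisons share libraries with one another and with the *met-2* comparison.

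The double mutant was then set against *met-2* alone. Fitted changes lay between 0.19 for *enu-3.1* and 0.46 for *enu-3.2*, all upwards, and no member was called by edgeR or DESeq2 (0 of 6, against 0.0% of all genes in edgeR, adjusted p 0.685 to 0.907). edgeR called 0 of 9167 genes higher, with 363 at an unadjusted p under 0.05, and DESeq2 called 18. The libraries of the double mutant and *met-2* overlapped for *enu-3.1* only. *enu-3.2* alone had an unadjusted p under 0.05 (0.049) in edgeR's test, so a difference of this size was not detectable after adjustment with 2 libraries a group. Whether the loss of *met-2* acted more strongly on a *set-25* background was tested with an interaction term, chosen after the values were seen. The estimates lay between -0.25 for *enu-3.1* and 0.44 for *enu-3.5*, with the smallest adjusted p at 0.902. edgeR called 0 of 9167 genes by that term, with 601 at an unadjusted p under 0.05, and no other tool was run on it.

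**Figure D2:**
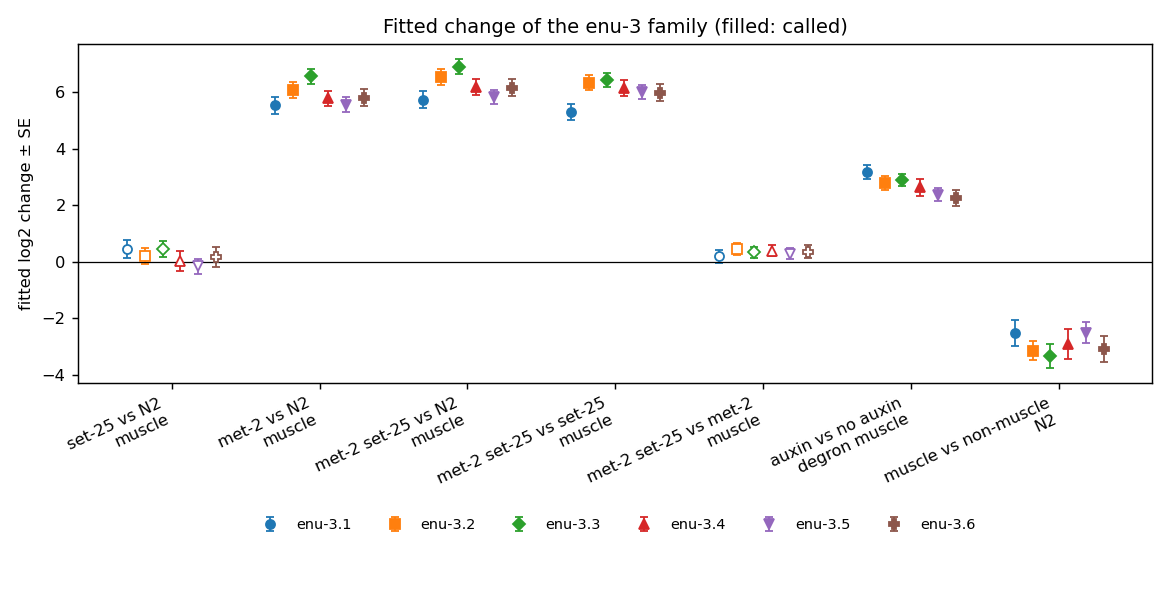
Fitted log2 change ± SE of each *enu-3* member (colours and symbols) in the 7 tested comparisons, from edgeR. Filled symbols were called and open symbols were not. The members lie between 5.53 and 6.56 for *met-2* against N2, between 2.26 and 3.18 for auxin against no auxin, and between -3.32 and -2.51 for N2 muscle against non-muscle cells.

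Degradation of tagged MET-2 tested the same genes with a different strain. No group had auxin without the degron, so an effect of auxin itself cannot be told apart from that of MET-2 degradation. Without auxin the members were at 1.65 to 8.77 CPM in degron muscle, and with auxin at 12.7 to 56.9 CPM. *enu-3.1* changed most, from 2.52 and 4.47 CPM to 36.5 and 30.5 CPM (3.18 ± 0.239 on the fitted log2 scale, adjusted p 2.44e-06). *enu-3.3* went from 3.66 and 5.46 CPM to 39.1 and 32.9 CPM (2.90 ± 0.214, adjusted p 2.39e-06). For each of the 6 members both auxin libraries were above both untreated libraries.

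*enu-3.2* was at 4.53 and 8.77 CPM untreated and 56.9 and 39.0 CPM with auxin (2.78 ± 0.251, adjusted p 1.19e-05), a 6.85-fold difference. The smallest change was that of *enu-3.6*, from 2.24 and 4.01 CPM to 16.1 and 15.4 CPM (2.26 ± 0.276, adjusted p 0.00016). *enu-3.4* and *enu-3.5* had changes of 2.63 ± 0.298 and 2.37 ± 0.242. In total 6 of 6 members were called higher with auxin, against 0.913% of 11393 genes tested. Each member was lower in untreated replicate 1 than in untreated replicate 2, and each was lower in auxin replicate 2 than in auxin replicate 1.

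The response to auxin was smaller than that to the *met-2* deletion. The difference between the changes, fitted as an interaction over the 12 muscle libraries and chosen after the values were seen, ran from -2.39 ± 0.383 for *enu-3.1* (adjusted p 0.0053) to -3.69 ± 0.304 for *enu-3.3* (adjusted p 2.2e-05). All 6 members had an adjusted p under 0.01 in edgeR's test, against 0.505% of 11099 genes in that direction. That for *enu-3.1* was no longer under 0.01 in 6 of the 8 fits that left out 1 library, where its estimate lay between -2.73 and -2.01 and its adjusted p between 0.012 and 0.040. The deletion and the degron differ in strain, in experiment, in exposure to auxin and in when MET-2 was lost, and these cannot be told apart. The summed family level was 25.6 ± 9.62 CPM in untreated degron muscle and 11.8 ± 0.03 CPM in N2 muscle (SD, n = 2), from tables made separately.

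In N2 animals the members were higher outside muscle. The 10 muscle markers summed to 16206 to 19799 CPM in non-muscle cells and 112685 to 117763 CPM in N2 muscle. All 10 were called higher in muscle, against 9.17% of 12107 genes, but the non-muscle libraries still held muscle marker RNA. *enu-3.2* was at 77.1 and 58.5 CPM in non-muscle cells, and *enu-3.3* at 62.2 and 39.4 CPM. Per length, *enu-3.2* was highest there with 40.8 ± 7.93 RPKM, followed by *enu-3.5* with 30.4 ± 7.94 RPKM, and these 2 ranges overlapped. All 6 members were called lower in muscle, against 23.4% of 12107 genes, with log2FC from -4.43 for *enu-3.3* to -3.63 for *enu-3.1*. The median over all genes was -1.73 on this scale, so the members lay well below it. After scaling by edgeR their fitted changes were -3.32 to -2.51 (adjusted p at most 0.0046), beside a median of -0.57 over all genes. Without non-muscle replicate 1 the count was 3 of 6, the calls of *enu-3.1*, *enu-3.4* and *enu-3.6* being lost. Without N2 muscle replicate 1, *enu-3.1* and *enu-3.4* were not called (adjusted p 0.014 and 0.016), and without N2 muscle replicate 2, *enu-3.4* was not called (adjusted p 0.014).

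The *met-2* muscle libraries also lay above the N2 non-muscle libraries. Summed over the family, the libraries were at 302 and 206 CPM in N2 non-muscle cells and at 754 and 702 CPM in *met-2* muscle, a 2.87-fold ratio of means that was not tested. In the muscle table the order of the summed levels was N2 muscle, *set-25* muscle, N2 non-muscle, *met-2* muscle and double mutant muscle. No neighbours in that order overlapped in their libraries, although the first pair differed by less than the SD of the *set-25* libraries (11.8 ± 0.03 and 12.8 ± 1.10 CPM).

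Markers of other cell types were read beside these results. The summed level of 8 germline genes (*pgl-1*, *pgl-3*, *glh-1*, *deps-1*, *htp-3*, *syp-1*, *him-3* and *gld-1*) was 20.5 to 39.1 CPM in N2 muscle, 2008 to 2011 in *met-2* muscle, 38.5 to 81.6 in *set-25* muscle and 2167 to 2181 in the double mutant. It was 2035 to 2810 CPM in N2 non-muscle cells, and 75.6 to 165 without and 432 to 453 with auxin. Of these germline genes 7 of 8 were called higher in *met-2* muscle, against 2.17% of all genes, and 3 of 8 with auxin, against 0.913%. Their median log2FC was 3.79 and 1.16, beside 0.01 and 0.08 over all genes. None of the 8 was at 0 in any group. Their part in the change of the *enu-3* family was not tested. With auxin 3 of 6 hypodermal collagen markers, *rol-6*, *dpy-13* and *dpy-5*, were called lower, against 0.816% of all genes. The 6 summed to 381 to 531 CPM without and 123 to 144 CPM with auxin, and their part was not tested either. For seam cells the germline sum spanned 28.1 to 39.3 CPM with N2 and 32.9 to 42.5 CPM with *set-25*. With *met-2* it spanned 161 to 173 CPM, and with the double mutant 400 to 436 CPM. The mean family total of the seam groups was 20.8 CPM (N2), 25.4 (*set-25*), 605 (*met-2*) and 610 (double mutant, libraries at 567 and 652). The members were chosen by their seam cell values, and the part of germline RNA in these totals was not tested.

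The 10 pan-neuronal markers summed to 225 to 238 CPM in N2 muscle and to 147 to 171 in *met-2* muscle. Of the 7 tested there 1, *sbt-1*, was called lower, against 0.0655% of all genes. In N2 non-muscle cells the 10 summed to only 85.8 to 111 CPM. Of the 10, 2 (*sbt-1* and *unc-13*) were called higher in N2 muscle than in non-muscle cells, against 9.17% of all genes. Their sum in muscle is therefore not read as an amount of neurons. The 8 motor neuron markers summed to 2.42 to 3.07 CPM in N2 and 6.49 to 8.41 in *met-2* muscle, where *cha-1*, *unc-47*, *unc-3* and *unc-4* had no counts. Of the motor neuron markers 3 of 8 were tested, edgeR called 0, 1 had an unadjusted p under 0.05, and DESeq2 called 1. The 6 touch receptor neuron markers summed to 16.001 to 34.9 CPM in N2 and 36.3 to 40.9 CPM in *met-2* muscle. Of the 5 tested, edgeR and DESeq2 called 0, with 1 at an unadjusted p under 0.05 in edgeR's test. The part of these neuronal markers in the change of the family was not tested.

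A list of 20 genes of axon guidance, the process in which ENU-3 acts, was read beside the family. All 20 were tested, and neither edgeR nor DESeq2 called any (0 of 20) in *met-2*, *set-25* or double mutant muscle against N2 or with auxin. At an unadjusted p under 0.05 edgeR had 3 in *met-2* muscle (*unc-5*, *madd-4* and *plx-1*, the last pair named after their values were seen), 1 in *set-25*, 5 in the double mutant and 4 with auxin. The shares of all genes called higher in these comparisons, 2.17%, 0.0%, 2.36% and 0.913%, correspond to less than 1 gene in 20, so nothing particular to guidance genes is read from the count. The median log2FC of the list in *met-2* muscle was 0.16, against 5.33 for the family. The netrin gene *unc-6* was at 46.7 and 38.0 CPM in N2 muscle and 37.1 and 44.1 in *met-2* muscle (-0.09 ± 0.214 on the fitted log2 scale, adjusted p 0.940). Its receptor genes *unc-40* and *unc-5* had fitted changes of 0.09 ± 0.224 and 0.61 ± 0.246 (adjusted p 0.939 and 0.326). *slt-1*, the Slit ligand, and *sax-3*, its Robo receptor, had 0.22 ± 0.234 and 0.09 ± 0.217. The groups of *unc-6*, *unc-40* and *sax-3* overlapped, and those of *unc-5* and *slt-1* did not. In N2 animals 5 of the 20 were called higher in muscle than in non-muscle cells by edgeR, against 9.17% of 12107 genes: *slt-1*, *eva-1*, *unc-129*, *unc-73* and *unc-44*. The share of all genes called lower was 23.4%, as given above for the family, and the list's median log2FC was 0.33 beside -1.73 over all genes.

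The genes beside the members were read in the same fits. The 3 nearest protein-coding genes with a row in the tables, on each side of each member, gave 36 neighbours, of which 27 were tested in muscle. In *met-2* muscle 1 of the 27 was called higher by edgeR and 1 by DESeq2, a share near the 2.17% of all genes. The gene that edgeR called was *mel-28*, a nuclear pore assembly gene that is transcribed away from its neighbour *enu-3.2* on the other strand, from 10.1 to 50.7 CPM on average (2.31 ± 0.316, adjusted p 0.00096). The median log2FC of the tested neighbours was 0.04. Next to *enu-3.3*, *pid-4* averaged 0.355 CPM in N2 and 2.88 in *met-2* muscle (2.94 ± 0.827, adjusted p 0.102), and next to *enu-3.5*, *unc-71*, an ADAM protein gene that acts in axon guidance, averaged 4.08 and 17.04 CPM (2.04 ± 0.583, adjusted p 0.109). Neither passed the test. In the double mutant against N2 edgeR called *mel-28* alone, against 2.36% of all genes, with an adjusted p of 0.023 for *pid-4* and 0.048 for *unc-71*, while DESeq2 called all 3. Against *set-25* muscle edgeR called 2 neighbours in the double mutant, *mel-28* and *unc-71* (3.83 ± 0.650, adjusted p 0.0044), beside 2.13% of all genes. With auxin edgeR and DESeq2 called 0 of 32 tested neighbours, 2 had an unadjusted p under 0.05 (*mel-28* and *pid-4*), and *mel-28* had a fitted change of 0.80 ± 0.203 (adjusted p 0.044).

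**Figure D3:**
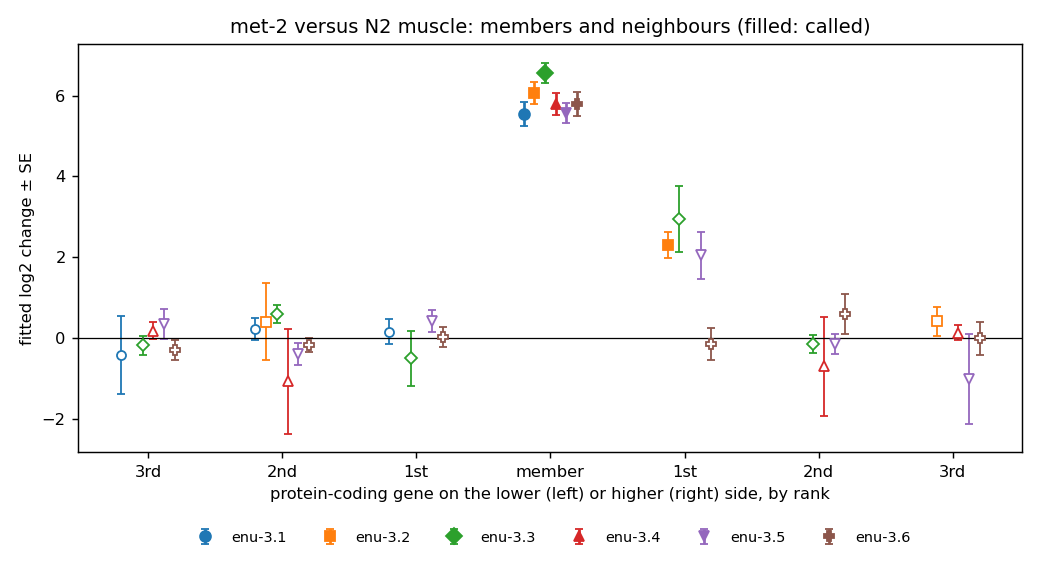
Fitted log2 change ± SE in *met-2* against N2 muscle for each member (centre) and for the tested protein-coding genes up to 3 places away on its lower-coordinate (left) and higher-coordinate (right) side. Colours and symbols give the member that a gene lies beside, and filled symbols were called. The 6 members lie at 5.53 or above, *mel-28* at 2.31, *pid-4* at 2.94 and *unc-71* at 2.04.

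The seam cell values that drew attention to the family are given as a description. The N2 libraries had 4.83 and 3.48 CPM of *enu-3.2*, and those of *set-25* had 3.996 and 4.19 CPM. Without *met-2*, *enu-3.2* was at 206 and 201 CPM, and at 176 and 202 CPM where both genes were deleted. *enu-3.3* went from 3.79 and 3.26 CPM in N2 to 121 and 126 CPM in *met-2*, with 4.49 and 5.19 CPM in *set-25* and 121 and 139 CPM in the double mutant. For both, every library without MET-2 was far above every library with it. Of all genes, 2.08% were called higher in *met-2* and 2.16% in the double mutant seam cells, from which nothing is read about the members.

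The other members had the same 2 levels in seam cells. *enu-3.4*, *enu-3.5* and *enu-3.6* were at 1.44 to 4.73 CPM in N2 and at 52.5 to 113 CPM in *met-2*. *enu-3.1* differed from the others. Per length it was the highest of the 6 in N2 seam cells, at 4.602 ± 0.847 RPKM, and the fifth of the 6 in *met-2* seam cells, at 46.7 ± 0.969 RPKM. It was at 5.81 and 4.47 CPM in N2 and 51.4 and 53.0 CPM in *met-2*, a log2FC of 3.26, against 4.45 to 5.50 for the other members. In the double mutant *enu-3.1* was at 58.1 and 74.2 CPM, and in *set-25* at 4.74 and 3.81. *enu-3.5* had 6.81 and 7.18 CPM in *set-25* seam cells, above both of its N2 libraries (4.73 and 3.37 CPM). In the order of the group means the *met-2* and double mutant seam libraries overlapped for all members but *enu-3.1*. Those of *set-25* and N2 overlapped for *enu-3.1* and *enu-3.2* and not for the other 4.

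The make-up of the family differed between groups. *enu-3.2* made up 22.9 ± 7.26% of the family counts in N2 muscle and 25.5 ± 0.81% in *met-2* muscle (SD, n = 2), a difference within the spread of the N2 libraries. In seam cells its share was 19.9 ± 1.13% in N2 and 33.6 ± 0.59% in *met-2*, and that of *enu-3.1* was 24.7 ± 0.25% and 8.63 ± 0.18%. With auxin *enu-3.1* made up 18.9 ± 1.19% against 13.6 ± 0.30% without. *enu-3.4* varied least, with group means between 7.65% and 9.07%. The seam cell shares come from the values that chose the members, and no share was tested.

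**Figure D4:**
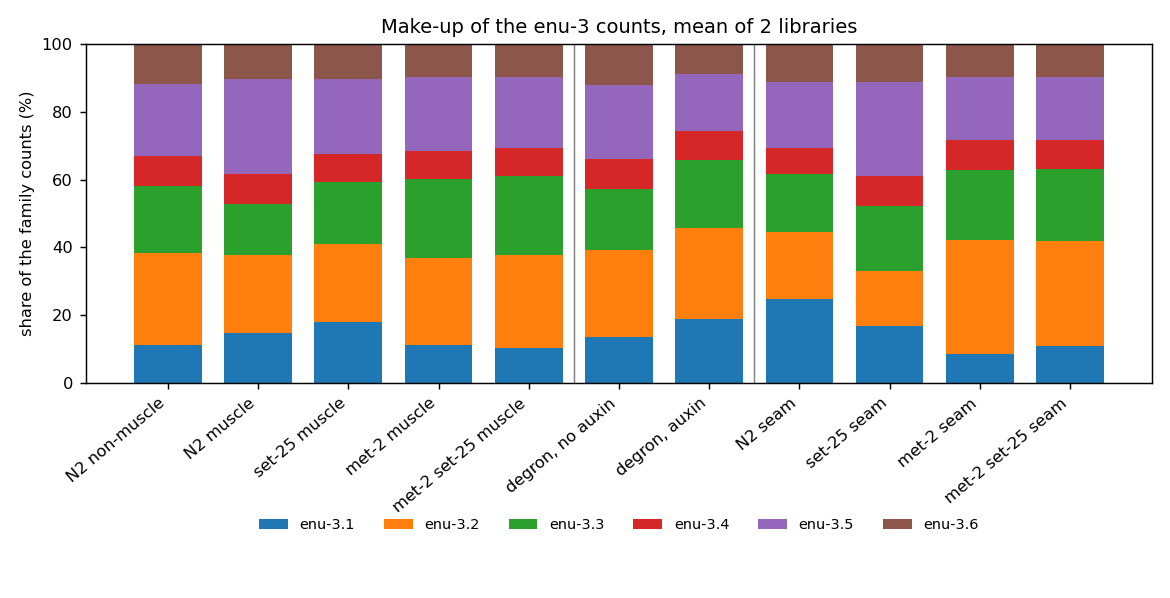
Mean share (%) of the summed *enu-3* counts that each member holds in the 11 groups (2 libraries each). Vertical lines separate the 3 count tables. *enu-3.1* holds 24.7% in N2 seam cells and 8.63% in *met-2* seam cells, and *enu-3.4* holds between 7.65% and 9.07% in all 11 groups.

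Likeness between genes was measured over all 22 libraries, including the 8 seam cell libraries whose values chose *enu-3.2* and *enu-3.3*. Between members Pearson's r of log2(CPM + 1) was lowest between *enu-3.1* and *enu-3.5* (0.981) and highest between *enu-3.3* and *enu-3.4* (0.998). These values, and the ranking of other genes by the same measure, are a description: they include the values behind the choice, and the libraries share genotypes, tables and sorts. Among 10370 genes outside the family with at least 5 CPM in 2 or more libraries, the 5 most like *enu-3.2* were Y48G10A.2 (r = 0.962), F08A8.5 (0.959), *wago-4* (0.959), *hrde-1* (0.957) and F08A8.8 (0.952). Those most like *enu-3.3* were Y48G10A.2 (0.964), *wago-4* (0.959), *hrde-1* (0.958), F08A8.5 (0.954) and *herd-1* (0.952). HRDE-1 is a nuclear Argonaute protein and WAGO-4 a cytoplasmic one, both known for germline small RNA inheritance. *hrde-1* averaged 2.54 CPM in N2 muscle, 153 in *met-2* muscle and 202 in N2 non-muscle cells, and *wago-4* averaged 0.492, 60.9 and 42.1 CPM. F08A8.5 had no counts in N2 muscle.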

How the data were processed

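RNA-seq was done on cells sorted from L3 larvae (2 libraries a group, Smart-Seq2). The authors used hisat2 through QuasR for alignment to the ce10 genome and deposited, per gene, the count of uniquely aligned reads within WS220 exons on the annotated strand, in 3 tables. Since Smart-Seq2 usually loses the strand, such counts may hold only part of the reads. The deposited exonic width of each gene, another column of the authors' tables, gave RPKM here. CPM used library totals.

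Members were matched by gene name (5) or, for *enu-3.4*, by the RefSeq locus tag that is the transcript name of its ID in the WBcel235 annotation (1). No sequence is shown and no promoter motif was searched. The members, lists and tests were chosen with earlier results of these data known. Counts were fitted in R 4.3.3 with edgeR 4.0.16 (quasi-likelihood, TMM scaling, filterByExpr), 1 fit for the 8 muscle genotype libraries and 1 each for the degron and the N2 sort. By rule the text names the members, *met-2* and *set-25*, genes among the 3 neighbours a side, the 5 genes most like *enu-3.2* and *enu-3.3*, and, of a guidance list, those called and *unc-6*, *unc-40*, *unc-5*, *slt-1* and *sax-3*. The cell type markers and 2 further guidance genes were named outside this rule, after their values were seen. The scripts were tested on simulated data. Alternatives were other scaling, no filter, DESeq2 1.42.0, the 2 compared groups alone, a pseudocount of 1, the fitted change in the 2-fold rule, a replicate block and leaving out each library. Replicates of all 11 groups differed by more than counting noise. With 2 libraries a group the precision of each level is limited, and the p-values rest on a spread shared across genes.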

Additional observations from a re-analysis of the deposited data

Results flagged for a closer look

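For each member the change with auxin in degron muscle differed from the change with *met-2* deletion, by an interaction term fitted over the 12 muscle libraries with edgeR and chosen after the values were seen. On the log2 scale the auxin change minus the *met-2* change was -2.39 for *enu-3.1*, -3.33 for *enu-3.2*, -3.69 for *enu-3.3*, -3.19 for *enu-3.4*, -3.22 for *enu-3.5* and -3.57 for *enu-3.6*. The summed level of 8 germline markers also differed between the 2 conditions, at 432 to 453 CPM with auxin and 2008 to 2011 CPM in *met-2* muscle. Strain, experiment and the time of MET-2 loss differ along with the treatment and cannot be told apart. Intestinal and hypodermal markers were also higher in untreated degron muscle than in N2 muscle. The 6 intestinal markers summed to 135 to 231 CPM in untreated degron muscle and 5.74 to 6.01 CPM in N2 muscle. The 6 hypodermal collagen markers summed to 381 to 531 CPM in untreated degron muscle and 15.8 to 17.05 CPM in N2 muscle. These sums come from tables made separately, and the part of these markers was not tested.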

How the results depend on the processing

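All 6 members stayed called higher in *met-2*, in double mutant muscle (against N2 and against *set-25*) and with auxin under every alternative run, leaving out each library included. Their log2FC ranged from 4.94 to 6.56 in *met-2*, from 5.06 to 6.81 in the double mutant and from 1.87 to 3.53 with auxin. No member was called in *set-25* muscle or in the double mutant against *met-2* under any of them. In muscle against non-muscle cells leaving out 1 library gave 3 to 6 of 6 members, and no other alternative changed the count. Signs turned only among uncalled values near 0 when a library was left out: in *set-25* muscle the log2FC ranged from -0.15 to 0.39 for *enu-3.2*, from -0.19 to 0.15 for *enu-3.4*, from -0.42 to 0.085 for *enu-3.5* and from -0.20 to 0.26 for *enu-3.6*, and in the double mutant against *met-2* from -0.024 to 0.26 for *enu-3.1*. The cause was not tested.

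Counts over all genes moved more. Without the filter, genes called higher numbered 334 (199) in *met-2*, 35 (0) in *set-25*, 376 (216) in the double mutant, 324 (195) in the double mutant against *set-25*, 30 (0) in it against *met-2* and 172 (104) with auxin, the count of the main fit in brackets. DESeq2 called 3 and 18 genes higher in *set-25* and in the double mutant against *met-2*. The 2 groups alone gave 128 genes for the double mutant against *set-25*. Scaling by library totals gave 54 genes with auxin and 6374 genes lower in muscle against non-muscle cells, where the main fit called 2838. Leaving out 1 library gave 81 to 312 genes higher with auxin (312 without untreated replicate 2) and 1674 to 2149 lower in muscle. The cause was not tested.

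The labels do not say that a replicate number marks a shared preparation, which for N2 muscle and non-muscle cells of 1 number remains possible. For the degron libraries the titles and the descriptions give different replicate numbers, and those of the titles were used. Deviations of same-numbered libraries correlated at -0.23 in the degron muscle and at -0.10 to 0.10 in the other tested comparisons. With a replicate block the counts were 192 in *met-2*, 201 in the double mutant, 142 with auxin and 2805 lower in muscle against non-muscle cells, and no member's call changed. A crossed replicate block, chosen after seeing the data, gave 191 with auxin. Depth limits the members in N2 and *set-25* muscle, at 12 to 57 counts a library.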
